A study of Mus musculus with 10 samples.

Results

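The genes described here encode the nuclear-encoded subunits of the 5 oxidative phosphorylation complexes. They were taken from the gene tables by symbol, as every gene whose symbol starts with Ndufa, Ndufb, Ndufc, Ndufs, Ndufv, Uqcr, Cox4i, Cox5, Cox6, Cox7, Cox8 or Atp5, together with Sdha, Sdhb, Sdhc and Sdhd and without the Ndufaf assembly factors. This gave 85 of 22923 gene symbols, of which 38 belong to complex I, 4 to complex II, 8 to complex III, 18 to complex IV and 17 to complex V. A few of them carry the symbol without being subunits of the complex it names. Cox7a2l is known as a factor of respiratory supercomplexes, Ndufa4 is now assigned to complex IV, and Atp5s and Atp5sl (named Dmac2l and Dmac2 in RefSeq) are not subunits of the mature ATP synthase.

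RNA sequencing had been done on cells of C57bl/6 mice that were 4 weeks old, from 5 populations: cycling and quiescent CD4+CD8+ thymocytes, large and small pre-B cells of the bone marrow, and mature granulocytes. Control mice were Dyrk1a flox/flox without the Mx1-Cre transgene, and the mice labelled CKO were Dyrk1a -/- with Mx1-Cre, whose promoter responds to interferon and acts in blood cells and in other tissues. Each population and genotype gave 1 library from 2 pooled mice, 10 libraries in all, so the 5 control libraries come from 1 pool and the 5 CKO-labelled libraries from another. The series set out to compare DYRK1A-deficient and control pre-B and pre-T cells, and its populations also pair dividing with non-dividing cells in each lineage.

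Complexes I to IV form the electron transport chain of the inner mitochondrial membrane: they pass electrons from NADH and succinate through coenzyme Q and cytochrome c to oxygen and, except for complex II, pump protons across the membrane. Complex V, the ATP synthase, lets the protons flow back and makes ATP. Large pre-B cells and cycling thymocytes divide rapidly before they leave the cell cycle to rearrange their light chain or T cell receptor alpha genes, and mature granulocytes are known for a metabolism that leans on glycolysis.

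Values are read as FPKM, which divides the fragments of a gene by its transcript length and by the depth of the library. The unit was inferred from the tools the submitters name, and the number of reads behind the values is unknown. Total FPKM ranged from 360394 to 431868 in the 8 lymphoid libraries, and 9818 to 10350 symbols reached 1 FPKM in the 10 libraries. The 9 thymocyte markers summed to 1985 to 3323 FPKM in the thymocyte libraries, and the 9 pre-B markers to 2605 to 5126 FPKM in the pre-B libraries. Dyrk1a itself was not lower in any CKO-labelled library (34.4 to 44.7 FPKM, against 31.2 to 37.4 FPKM in control), so the level of the whole gene, which a deletion of single exons need not lower, does not check the genotype labels. The 6 cycling markers summed to 1069 FPKM in control cycling thymocytes. In quiescent thymocytes their sum was 23.7 FPKM (control) and 299.8 FPKM (CKO-labelled), and in small pre-B cells 248 FPKM (control) and 570 FPKM (CKO-labelled). Granulocytes held 420 FPKM (control) and 434 FPKM (CKO-labelled) of these markers, above the control small pre-B cells. Total FPKM was 830006 in the control and 1074260 in the CKO-labelled granulocyte library. S100a8 took 22.9% of the latter and was listed at 0 in the former, as was Ngp, and S100a9 was listed at 0 in both, so the 2 totals lack different genes.

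The subunit genes were among the more abundant transcripts. Of the 85, 80 reached 1 FPKM in at least 1 library, 78 reached 5 FPKM and 74 had at least 10 FPKM in every library. Within each library, 87.3% to 94.0% of the symbols with a mean of at least 1 FPKM lay below the median subunit gene. The 5 genes that stayed under 1 FPKM everywhere were Ndufa4l2, Cox4i2, Cox7b2, Cox8b and Cox8c, which are isoforms known from other tissues.

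Levels per transcript length ranged widely by complex. The median of the members' means over the 10 libraries, taken over members that reached 5 FPKM, was 59.0 FPKM for complex I, 69.3 FPKM for complex II and 82.5 FPKM for complex III, against 212 FPKM for complex IV and 198 FPKM for complex V. The highest means in complex I were those of the accessory subunit gene Ndufa3 (186 FPKM), of Ndufa4 (150 FPKM) and of Ndufb7 (123 FPKM). In complex II, which oxidises succinate, the membrane anchor gene Sdhd had a mean of 82.1 FPKM, the iron-sulfur subunit gene Sdhb 74.2 FPKM and the flavoprotein gene Sdha 64.5 FPKM. In complex III, the hinge protein gene Uqcrh led with 244 FPKM, ahead of Uqcr10 (121 FPKM) and Uqcrq (103 FPKM). Cox4i1 (319 FPKM), Cox6a1 (315 FPKM) and Cox8a (307 FPKM) led complex IV, and the catalytic beta subunit gene Atp5b (427 FPKM), the alpha subunit gene Atp5a1 (302 FPKM) and the subunit e gene Atp5k (297 FPKM) led complex V.

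The summed FPKM of the 85 genes was highest in large pre-B cells, cycling thymocytes and granulocytes. Cycling thymocytes reached 10346 FPKM (control) and 9022 FPKM (CKO-labelled), and the quiescent ones 6883 and 6824 FPKM in the same order. Large pre-B cells reached 11509 and 11405 FPKM, small pre-B cells 7842 and 7670 FPKM, and granulocytes 10145 and 10271 FPKM. Within both lymphoid lineages, the dividing and the non-dividing libraries did not overlap. From cycling to quiescent thymocytes the sum fell by 33.5% in control and fell by 24.4% in the CKO-labelled pair. From large to small pre-B cells it fell by 31.9% in control and fell by 32.8% in the CKO-labelled pair. As a share of all FPKM, the members in thymocytes fell by 31.0% in control and fell by 24.6% in the CKO-labelled pair, and in pre-B cells the share fell by 25.8% in control and fell by 19.4% in the CKO-labelled pair. These are relative levels: in bulk samples fewer cells of a type and less RNA per cell cannot be told apart.

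**Figure D1:**
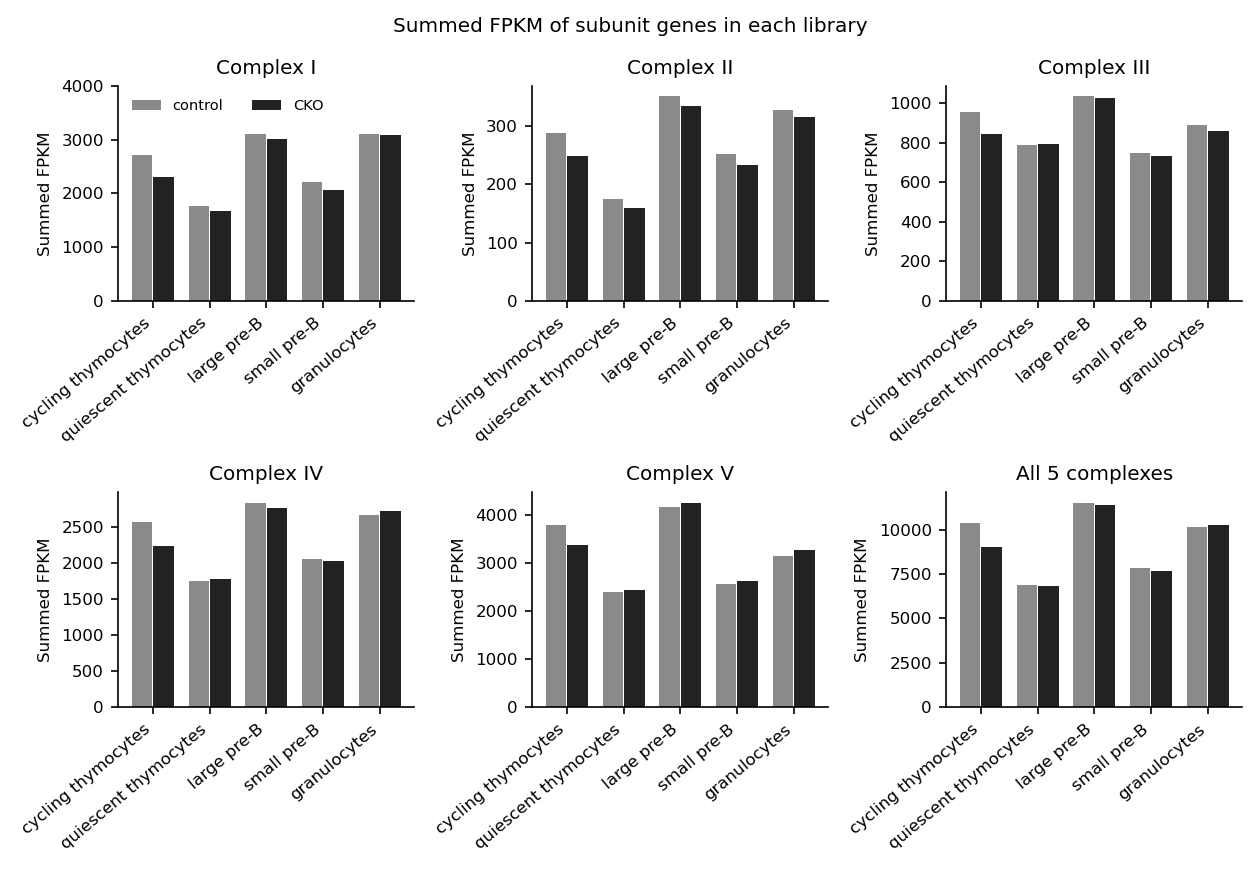
Summed FPKM (y axis, linear from 0) of the subunit genes of each complex and of all 5 complexes, in each of the 10 libraries (x axis, population; grey bars control, black bars CKO-labelled; 1 library per bar, so no error bar). In every complex the quiescent thymocyte and small pre-B bars are lower than those of their dividing partners, and for all complexes the granulocyte bars stand at 10145 and 10271 FPKM.

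Quiescent thymocytes held lower levels of most subunit genes than cycling thymocytes. Of 80 genes tested, 55 were lower and 3 were higher at an adjusted p of at most 0.05 (limma on log2(FPKM + 1), Benjamini-Hochberg over 11126 symbols). Over all symbols tested, 19.7% were lower and 25.2% higher. The median difference of the subunit genes was -0.49 on the log2 scale and that of all symbols 0.06. In 64 of 77 subunit genes with at least 5 FPKM both quiescent libraries lay below both cycling libraries, against 31.3% of all symbols at that level, and 3 of 77 lay the other way (44.3%). Since every library of a genotype comes from 1 pool of mice, the spread between animals is not part of any p-value here.

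The lower genes came from all 5 complexes. In complex I, 25 of 37 tested genes were lower, and none was higher. All 4 genes of complex II were lower, as were 5 of 8 in complex III, 9 of 14 in complex IV and 12 of 17 in complex V. Within complex I, 3 of 7 core subunit genes were lower, Ndufs7, Ndufv1 and Ndufv2, which carry iron-sulfur clusters or the flavin. The core genes Ndufs1, Ndufs3 and Ndufs8 had differences of -0.03, -0.06 and -0.30 that did not pass the test, while 22 of the 30 remaining genes with complex I symbols were lower. Of the 10 broadly expressed complex IV subunit genes 9 were lower, the exception being Cox4i1 (-0.10, adjusted p = 0.43, limma). This grouping by role was made after the values were seen.

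The largest difference was that of Atp5g2, which encodes the c subunit of the ATP synthase ring. Cycling thymocytes had 295 FPKM (control) and 225 FPKM (CKO-labelled) of it, and quiescent ones 92.3 and 89.3 FPKM. The log2 difference was -1.50 (SE 0.12, adjusted p = 0.0062, limma), with the same sign in both pairs of libraries. Ndufc1, a membrane arm subunit gene of complex I, had 74.3 and 64.4 FPKM in the cycling and 24.4 and 24.6 FPKM in the quiescent libraries, a difference of -1.46 (SE 0.11). It was followed by Ndufc2 (-1.35), the acyl carrier protein gene Ndufab1 (-1.19), the complex II membrane anchor gene Sdhc (-1.16), Ndufa12 (-1.14), Ndufb9 (-1.07) and Ndufb3 (-1.0). Except for Sdhc and Atp5g2, all of these belong to complex I.

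The 3 genes that were higher in quiescent thymocytes were Atp5sl, Cox7a2l and Uqcrh. Cox7a2l had 183 and 171 FPKM in the cycling libraries and 296 and 278 FPKM in the quiescent ones, a log2 difference of 0.70 (SE 0.11, adjusted p = 0.0089, limma). Uqcrh had 248 and 240 FPKM in the cycling and 331 and 358 FPKM in the quiescent libraries (0.50, SE 0.10, adjusted p = 0.013, limma). Atp5sl had 7.26 and 7.60 FPKM in the cycling and 18.3 and 10.9 FPKM in the quiescent libraries, with a difference of 0.85 (SE 0.21). In each of these genes both quiescent libraries lay above both cycling ones. With only 2 pairs of libraries the calls rest on each pair. No member call outlasted leaving out the control pair of thymocyte libraries, where the median was -0.44 with 71 of 80 below 0. That fit holds 1 library of each thymocyte state, and shares over all symbols are not given for it. Without the CKO-labelled pair the calls rest on 1 library of each thymocyte state. By log2 ratio at 5 FPKM, 72 of 77 genes lay below 0 in the control pair (3446 of 8113 symbols). In the CKO-labelled pair 70 of 77 did (3388 of 7954 symbols).

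Small pre-B cells showed the same direction against large pre-B cells. Of 80 genes, 60 were lower and 3 higher (limma), beside 21.8% lower and 25.6% higher over all symbols. The median difference was -0.55, and 0.04 over all symbols. In 72 of 78 genes with at least 5 FPKM both small pre-B libraries lay below both large pre-B libraries, against 36.5% of all symbols, and 3 of 78 lay the other way (41%). By complex, 25 of 37 genes of complex I, all 4 of complex II, 6 of 8 of complex III, 10 of 14 of complex IV and 15 of 17 of complex V were lower. All 5 genes of the F1 head of the ATP synthase, where ATP is made, all 4 of its peripheral stalk and all 3 of its c ring were among them. As in thymocytes, Ndufs7, Ndufv1 and Ndufv2 were the core genes of complex I that were called.

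Markers of other cell types moved with this comparison. The 7 erythroid markers summed to 389.8 and 212 FPKM in large and 27.7 and 23.0 FPKM in small pre-B cells, control before CKO-labelled. The early granulocyte genes Mpo (365 and 159 FPKM, then 6.48 and 4.57 FPKM) and Elane (251 and 115 FPKM, then 6.86 and 3.72 FPKM) were likewise lower in the small pre-B libraries. Prtn3 was lower too (183 and 67.1 FPKM, then 4.28 and 1.49 FPKM). All other granulocyte markers on the list went the other way: S100a8, S100a9, Ngp, Camp, Lcn2, Ltf and Mmp8 were higher there in both genotypes. S100a8, for example, had 104 and 84.1 FPKM, then 272 and 221 FPKM. The part of any of these markers in the subunit gene values was not tested.

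Atp5g1, another c subunit gene, had the largest difference between the pre-B populations. Its level was 102 and 105 FPKM in large pre-B cells and 40.4 and 40.2 FPKM in small pre-B cells, control before CKO-labelled, a log2 difference of -1.34 (SE 0.09, adjusted p = 0.0023, limma). The complex III subunit gene Uqcr11 had 128 and 131 FPKM in large and 57.5 and 65.3 FPKM in small pre-B cells (-1.07, SE 0.10). For both genes the libraries of 1 stage differed far less from each other than from those of the other stage. The next were Atp5g2 (-1.0), the complex IV subunit gene Cox5a (-0.96), Atp5k (-0.94), Ndufa12 (-0.94), Atp5g3 (-0.92) and Ndufa5 (-0.88). The 3 c subunit genes were thus all among the 8 largest falls.

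Higher in small pre-B cells were Cox6a2, Atp5sl and Cox7a2l. Cox7a2l rose from 199 and 217 FPKM to 323 and 284 FPKM (0.54, SE 0.11, adjusted p = 0.015, limma). Atp5sl had 10.6 and 7.75 FPKM in large and 27.7 and 15.6 FPKM in small pre-B cells (1.12, SE 0.21). Cox6a2, the isoform of subunit 6a known from heart and skeletal muscle, is described further on. Here too the calls rest on each pair. No member call outlasted leaving out the control pair of pre-B libraries, where the median was -0.54 with 77 of 80 below 0. Without the CKO-labelled pair 74 of 80 lay below 0. Such fits hold 1 library of each pre-B population, and shares over all symbols are not given for them. By log2 ratio at 5 FPKM, 72 of 78 genes lay below 0 in the control pair (3659 of 8348 symbols). In the CKO-labelled pair 75 of 78 did (4195 of 8235 symbols).

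In all, 50 subunit genes were lower in both lineages, which is 90.9% of the thymocyte list and 83.3% of the pre-B list. Over all symbols tested the shares were 60.5% and 54.6%. A further 10 genes were called lower only in the pre-B test: Atp5a1, Atp5d, Atp5g1, Cox4i1, Cox7a1, Ndufa2, Ndufa5, Ndufv3, Uqcrb and Uqcrfs1. Another 5 were called lower only in the thymocyte test: Cox7c, Ndufa7, Ndufa13, Ndufs4 and Uqcrc2. Being called in 1 lineage and not in the other is no test of a difference between lineages. Cox7a2l and Atp5sl were higher in both, and 11 genes passed in neither. Across the 80 genes the differences in the 2 lineages had a Pearson r of 0.67 and a Spearman rho of 0.59, and across all symbols 0.63 and 0.64. Estimates of any size lay below 0 for 73 of 80 genes in thymocytes (44.9% of all symbols) and for 77 of 80 in pre-B cells (47.2%). The correlations are across genes of the same 8 libraries, and genes are not independent replicates.

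**Figure D2:**
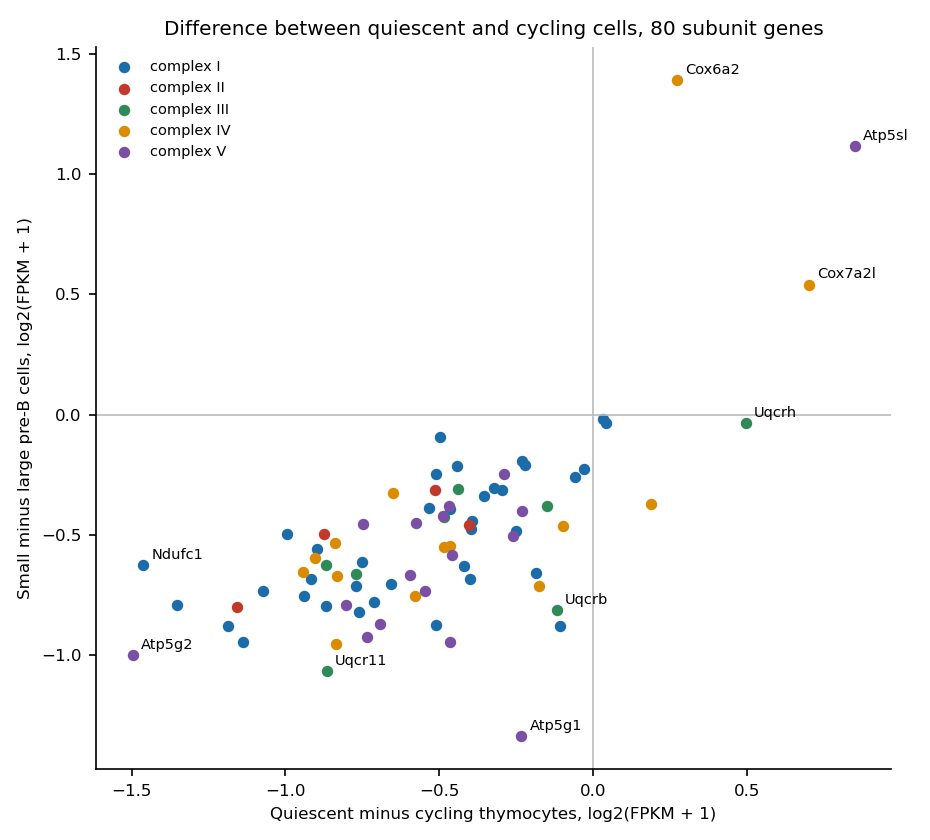
Each point is 1 of 80 subunit genes, coloured by complex. The x axis gives the difference between quiescent and cycling thymocytes and the y axis that between small and large pre-B cells, both in log2(FPKM + 1) from the fit over 8 libraries. Most points lie below 0 on both axes (73 of 80 in thymocytes, 77 of 80 in pre-B cells), with Cox7a2l and Atp5sl above 0 on both and Atp5g1, Ndufc1 and Uqcrb off the main cloud.

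The difference between the 2 lineages was tested itself, and 3 subunit genes passed (limma, 6.84% of all symbols). With these, 14 of 80 had an unadjusted p under 0.05, beside 28.2% of all symbols. For Atp5g1 the fall was larger in pre-B cells than in thymocytes, where it had 68.4 and 63.8 FPKM in cycling and 59.0 and 53.2 FPKM in quiescent libraries. Its state difference was -1.34 in pre-B cells and -0.23 in thymocytes (difference between lineages -1.10, SE 0.13, adjusted p = 0.023, limma). Ndufc1 fell less in pre-B cells, from 95.9 and 88.0 FPKM to 64.6 and 54.1 FPKM, with a difference between lineages of 0.84 (SE 0.15, adjusted p = 0.042, limma). Uqcrb, which encodes a ubiquinone-binding subunit of complex III, had 112 and 116 FPKM in large and 63.8 and 65.2 FPKM in small pre-B cells, but 74.8 and 53.1 FPKM in the cycling thymocyte libraries and 67.0 and 50.1 FPKM in the quiescent ones (difference -0.69, SE 0.13, adjusted p = 0.046, limma). In thymocytes the 2 states of Uqcrb overlapped. Its exons overlap those of Gm10767 on the opposite strand, which stood at 0.363 to 1.53 FPKM in the 10 libraries. Leaving out any pair of lymphoid libraries left 0 or 1 of the 3 calls (limma, 4 to 16 members with an unadjusted p under 0.05), and with a pseudocount of 0.1 only 1 passed.

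On mm10, RefSeq places Atp5g1 at chr11:96072793-96075694, Ndufc1 at chr3:51405479-51408955 and Uqcrb at chr13:66900576-66905350, all on the minus strand. Cox7a2l lies at chr17:83501917-83514333, Uqcrh at chr4:116066965-116075070 and Cox6a2 at chr7:128205435-128206366, also on the minus strand. Values are per gene, so they do not distinguish exons, introns or UTRs. Of the genes named with values, Ndufa3, Ndufa13, Ndufab1, Ndufb6, Ndufb9, Ndufs1, Ndufs3, Cox5a, Cox6a2, Uqcrb, Atp5a1, Atp5f1 and Atp5l have exons that overlap those of another gene, and without a stated strand setting their reads could include reads of that gene.

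The c subunit is encoded by 3 genes, Atp5g1, Atp5g2 and Atp5g3, that give the same mature peptide after their different import sequences are removed. Atp5g3 gave 43.7% to 62.0% of their summed FPKM, Atp5g2 23.8% to 45.3% and Atp5g1 8.34% to 16.1%. Atp5g2 gave 25.1% and 23.8% in the 2 quiescent thymocyte libraries, against 34.7% to 45.3% in the 8 other libraries. The Atp5g1 share was highest in the quiescent thymocytes as well, at 16.1% and 14.2%. The sources used here do not say how reads shared by these genes or by their processed copies were counted.

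**Figure D3:**
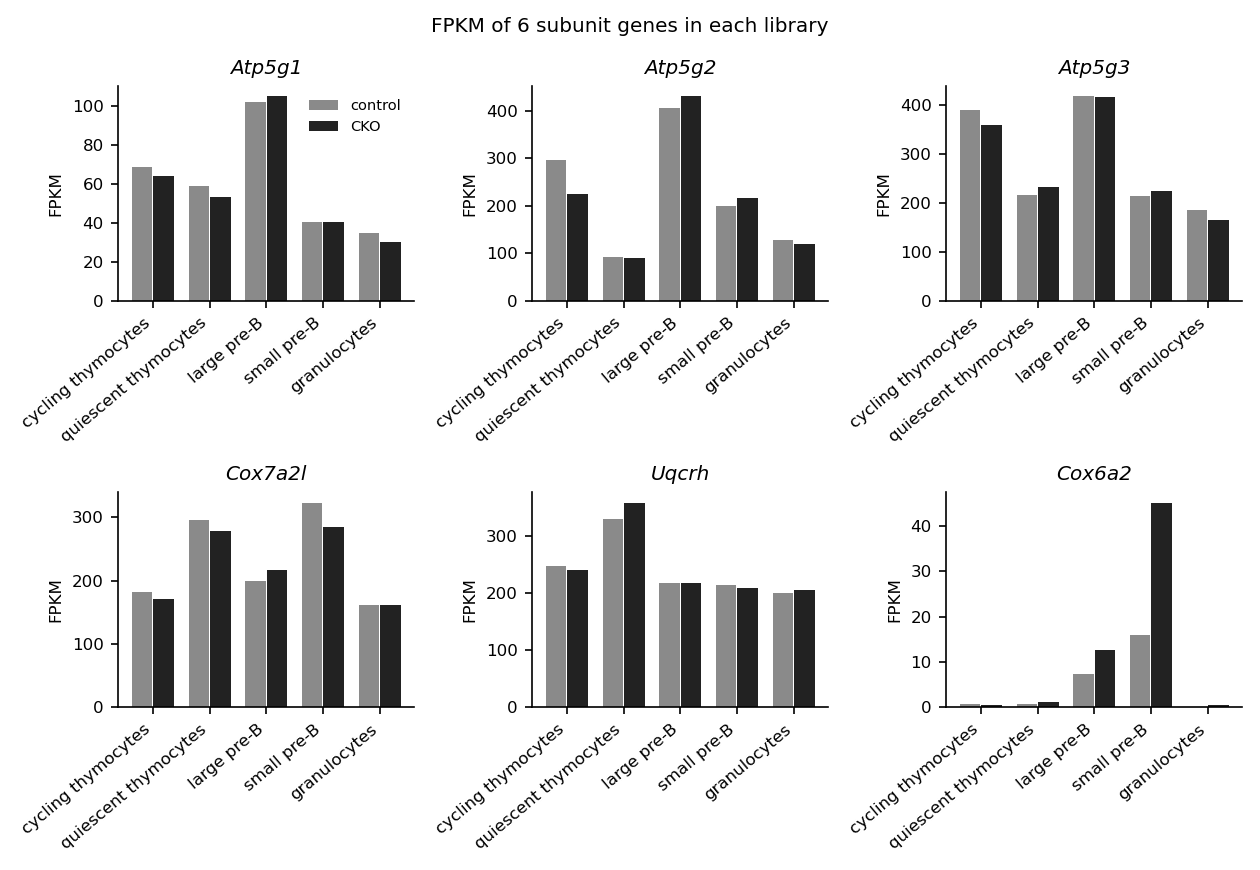
FPKM (y axis, linear from 0, a scale of its own in each panel) of 6 subunit genes in each of the 10 libraries (x axis, population; grey bars control, black bars CKO-labelled; 1 library per bar, no error bar). Atp5g1 drops from 102 and 105 FPKM in large to 40.4 and 40.2 FPKM in small pre-B cells, Cox7a2l is highest in quiescent thymocytes and small pre-B cells, Uqcrh is highest in quiescent thymocytes, and Cox6a2 reaches 45.2 FPKM in 1 library.

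Genes of the same pathway outside the symbol rule were counted from lists that were chosen with earlier results of these data known. Of 75 mitochondrial ribosomal protein genes, which serve to translate the subunits encoded in mitochondrial DNA, 45 were lower and 2 higher in quiescent thymocytes (median -0.47), and 42 were lower and none higher in small pre-B cells (median -0.44). Over all symbols the shares lower and higher were 19.7% and 25.2% in thymocytes and 21.8% and 25.6% in pre-B cells, and the counts of the following lists stand beside the same shares. Of 17 citrate cycle genes, 8 were lower in each lineage, with 2 higher in thymocytes. Idh3a, a subunit of the NAD-dependent isocitrate dehydrogenase, had 35.9 and 31.0 FPKM in the cycling and 13.9 and 15.3 FPKM in the quiescent thymocyte libraries (-1.14), and 37.7 and 35.1 FPKM in large and 15.9 and 17.1 FPKM in small pre-B cells (-1.10).

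Of 17 genes of electron carriers and coenzyme Q synthesis, 10 were lower and 2 higher in quiescent thymocytes, and 9 were lower and 1 higher in small pre-B cells. Cytochrome c (Cycs) was lower in both, with differences of -0.58 and -0.78. Etfb, a subunit gene of the electron transfer flavoprotein, was lower too (-1.15 and -1.13). Adck3, known for its part in coenzyme Q synthesis, was higher in both, by 0.96 and 1.60, with at most 1.77 FPKM in the dividing libraries and 3.10 to 7.26 FPKM in the non-dividing ones. Cyc1, a complex III subunit gene that the symbol rule missed, is counted on this list. It was called lower in small pre-B cells (-0.54) and did not pass in thymocytes (-0.30).

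The lists of assembly factors are short, and their counts are to be read beside the shares of all symbols that were lower (19.7% and 21.8%). Found by symbol were 9 of 13 entries for complex I and 2 of 4 for complex II. For complexes III and IV these were 3 of 6 and 12 of 20. Of 9 complex I assembly factors 3 were lower in each lineage and none was higher, among them Ndufaf2 (-1.29 in thymocytes and -1.10 in pre-B cells). Of the 12 complex IV factors, 5 were lower in thymocytes and 4 in pre-B cells. The list for complex V holds the assembly factors Atpaf1, Atpaf2 and Tmem70, the inhibitor gene Atpif1 and the subunit gene Usmg5, which the symbol rule missed. Of these 5, all but Usmg5 were lower in thymocytes, and Tmem70 and Usmg5 were lower in pre-B cells. Neither of 2 complex II factors passed in thymocytes, while Sdhaf2 was higher in small pre-B cells (0.54). Of 3 complex III factors Bcs1l, which is needed to insert the Rieske protein, was lower in both (-0.79 and -0.67). None of the 13 subunits encoded in mitochondrial DNA was found by symbol, so they could not be described.

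Among 17 tested regulators of mitochondrial gene expression, 3 were lower and 4 higher in quiescent thymocytes, and 4 were lower and 2 higher in small pre-B cells, near or below the shares over all symbols (19.7% lower and 25.2% higher, then 21.8% and 25.6%). The coactivator gene Pprc1 was lower in both (-0.46 and -0.80), and so was Tfb1m (-1.53 and -0.89), which encodes a methyltransferase of mitochondrial ribosomal RNA. Esrra, a nuclear receptor gene, was higher in both (1.26 and 1.22). Nrf1, Gabpa and Yy1, whose proteins bind the motifs described next, had differences of -0.14, -0.03 and 0.25 in thymocytes and -0.08, 0.01 and -0.10 in pre-B cells, and none of these passed the test (limma).

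Promoters of the subunit genes were searched because most of these genes moved together. RefSeq (GRCm38.p6) gave 76 windows for 70 of the 85 genes, from 250 bases before to 50 bases after the start, and both strands were searched. The NRF1 motif (GCGCA, any base, GCGC) was in 23.7% of them, against 4.6% of all 32851 windows and 6.38% of those of protein-coding genes. The YY1 motif AAGATGGC was in 15.8% (2.75% of all windows, 3.05% of protein-coding genes). The SP1 motif GGGGCGGGG was in 15.8% (11.4% and 15.4%), the E-box CACGTG in 11.8% (7.15% and 7.84%), the ETS motif CCGGAAGT, bound by GABPA, in 6.58% (3.89% and 5.15%), and the E2F motif TTTCCCGC in none of the 76 windows (1.07% and 1.41%). NRF1 matches were in 8 of 35 windows of complex I, 2 of 3 of complex II, 1 of 5 of complex III, 1 of 13 of complex IV and 6 of 20 of complex V. Among the genes lower in both lineages 14 of 48 windows held it (29.2%), and 4 of the 28 other windows did (14.3%). These 28 windows belong to 24 genes, and they include untested genes that stayed under 1 FPKM, Cox7b2 and Cox8b. No matches of different motifs shared bases in these 76 windows. A match is a description of letters, not of binding.

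The windows below show the NRF1 letters of genes that were lower in both lineages, up to 2 of the highest mean level in each complex and 2 of the c subunit genes, and those of 2 genes that departed from the common pattern. Each is given 5′ to 3′ on the strand of its gene, with the matched letters in capitals (a match on the other strand appears as its complement read backwards).
Ndufs5: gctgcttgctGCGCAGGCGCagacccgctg
Ndufs6: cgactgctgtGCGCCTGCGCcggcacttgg
Sdhd: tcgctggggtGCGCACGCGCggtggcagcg
Sdha: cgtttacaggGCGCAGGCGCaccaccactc
Uqcrc1: cttccttacaGCGCTTGCGCctcagactcc
Cox6a1: caggaacgggGCGCATGCGCgctctcgctc
Atp5k: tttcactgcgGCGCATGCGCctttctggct
Atp5g2: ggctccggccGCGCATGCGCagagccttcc
Atp5g3: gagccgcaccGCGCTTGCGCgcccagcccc
Atp5g1, E-box: agggactccgaaCACGTGggtgggggagct
Uqcrh, ETS motif: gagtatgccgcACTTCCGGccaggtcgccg
The window of Sdha is chr13:74350319-74350348 on the minus strand, and 2 further matches of this promoter begin 55 and 10 bases before the start. A further NRF1 match begins 31 bases after the start of Uqcrc1, and another 117 bases before that of Cox6a1. The window of Atp5g2 is chr15:102671070-102671099 (minus strand), where the match begins 42 bases before the start, and that of Atp5g3 is chr2:73911295-73911324 (minus strand), where it begins 13 bases after the start. The window of Atp5g1, which held no NRF1 match, is chr11:96075658-96075687, and that of Uqcrh is chr4:116075063-116075092, both on the minus strand. Neither motif was particular to these genes. Among genes lower in both lineages the E-box was in 4 of 48 windows (Atp5f1, Atp5g3, Atp5l and Ndufv1), and in 5 of the 28 others. The ETS motif was in 3 of 48 (Atp5h, Cox8a and Uqcr11) and in 2 of the 28 others.

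CKO-labelled and control libraries were compared next, which is the comparison the series was made for. No subunit gene passed the adjusted test over the 4 lymphoid populations (limma, smallest adjusted p = 0.25, 0.036% of all symbols), and 9 of 80 had an unadjusted p under 0.05, beside 16.8% of all symbols. Over 5 populations none passed either (limma, smallest adjusted p = 0.21, 0.0512% of all symbols), with 11 at an unadjusted p under 0.05, again beside 16.8%, and 68 below 0, beside 53.3%. The estimates were mostly small and negative. In the 4 lymphoid populations 68 of 80 lay below 0 (51.6% of all symbols), with a median of -0.09 and a range from -0.46 to 0.55. These fits read the same 2 pools in every population, and a p that misses the threshold does not show equal levels.

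The lean to negative values was strongest in cycling thymocytes. There 75 of 77 genes that reached 5 FPKM were lower in the CKO-labelled library, against 47.6% of all symbols, and the median log2 ratio was -0.23, against 0.01 for all symbols. All of the 37 genes of complex I, 4 of complex II, 8 of complex III and 12 of complex IV were below 0, as were 14 of 16 of complex V. Without this population the median over the other 3 lymphoid populations was -0.05, with 56 of 80 below 0 (the share over all symbols in that fit is not given here). In the other populations the counts were closer to those of all symbols: 50 of 77 in quiescent thymocytes (51.2%), 47 of 78 in large pre-B cells (42.7%), 51 of 78 in small pre-B cells (63.5%) and 39 of 76 in granulocytes (52%). Those of quiescent thymocytes and large pre-B cells still stood above the share over all symbols. With 1 library on each side there is no test within a population.

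In cycling thymocytes the lowest ratios were those of Uqcrb (53.1 against 74.8 FPKM, -0.49), the testis-type isoform gene Cox6b2 (3.54 against 5.19 FPKM, -0.45) and Uqcrq (96.7 against 132 FPKM, -0.44). The highest were Atp5sl (0.06), Atp5h (0.05) and Ndufs1 (0.00). In quiescent thymocytes Atp5sl (10.9 against 18.3 FPKM, -0.70), Ndufv3 (-0.43) and Uqcrb (-0.41) were lowest, and Cox8a (189 against 144 FPKM, 0.39), Ndufc2 (0.29) and Cox6b2 (0.28) highest.

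In large pre-B cells the lowest ratios were those of Atp5sl (-0.40), Cox6b2 (-0.37) and Ndufb3 (-0.18), and the highest those of Cox6a2 (0.70), Ndufa12 (0.16) and Cox7a2l (0.13). In small pre-B cells Atp5sl (15.6 against 27.7 FPKM, -0.79), Ndufa3 (-0.30) and Cox6b2 (-0.29) were lowest, and Cox6a2 (1.44), Ndufa12 (0.19) and Atp5o (0.18) highest. In granulocytes Ndufa8 (66.4 against 101 FPKM, -0.60), Cox6b2 (-0.47) and Uqcrb (-0.45) were lowest, and Ndufs3 (0.29), Atp5b (0.28) and Uqcrfs1 (0.20) highest. Cox6b2, at 3.54 to 9.07 FPKM, was among the 3 lowest ratios in 4 of the 5 populations, and among the 3 highest in quiescent thymocytes.

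Lower in the CKO-labelled library of all 5 populations were 10 of 76 genes, 13.2%, against 8.98% of all symbols: Ndufa8, Ndufa10, Ndufb3, Ndufb9, Ndufs8, Ndufv3, Sdha, Sdhc, Uqcrq and Cox5b. Their ratios were mostly small. Ndufb9 ranged from -0.39 in cycling thymocytes to -0.11 in large pre-B cells, and Cox5b from -0.19 to -0.04. Atp5h, a peripheral stalk gene, was higher in all 5, by 0.01 to 0.13.

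**Figure D4:**
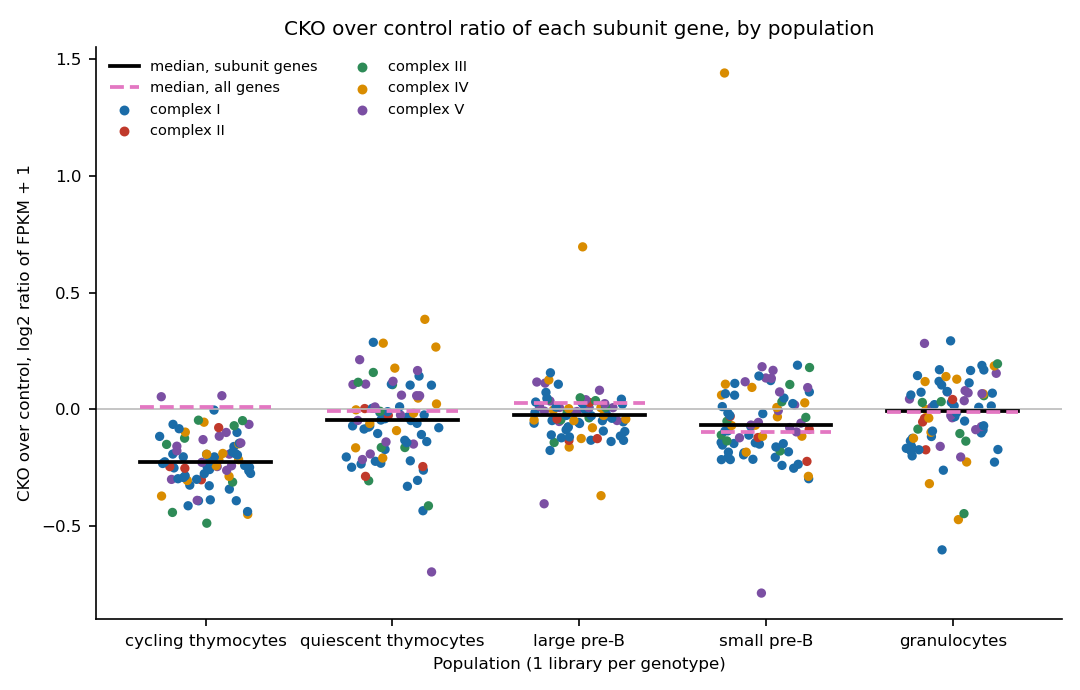
CKO over control ratio (y axis, log2 ratio of FPKM + 1) of each subunit gene that reached 5 FPKM in either library, in each population (x axis; 1 library per genotype, points spread sideways at random and coloured by complex). Black lines are medians over subunit genes and dashed lines medians over all genes; in cycling thymocytes the medians are -0.23 and 0.01, and Cox6a2 at 1.44 in small pre-B cells is the highest point.

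Whether the difference between dividing and non-dividing cells was itself another in the CKO-labelled pool was tested with an interaction term, which leaves 1 residual degree of freedom. No subunit gene passed (limma, smallest adjusted p = 0.27, 0.0449% of all symbols), and 3 of 80 had an unadjusted p under 0.05, against 12.2% of all symbols. The interaction was below 0 for 23 of 80 genes, against 55.4% of all symbols, with a median of 0.09 (all symbols -0.03). By this estimate over both lineages together the fall was smaller in the CKO-labelled libraries, which the ratios show in thymocytes. In control thymocytes the median log2 ratio of quiescent over cycling cells was -0.61, and in CKO-labelled thymocytes -0.45. In pre-B cells the medians were -0.55 and -0.54, with 72 of 78 and 75 of 78 genes below 0. The CKO-labelled quiescent thymocytes held more of the cycling markers, with Mki67 at 48.3 against 1.70 FPKM and Top2a at 52.0 against 3.27 FPKM. The summed FPKM of the subunit genes was 9022 against 10346 in cycling and 6824 against 6883 in quiescent thymocytes, CKO-labelled against control. The part of the cycling markers in the thymocyte values was not tested.

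Cox6a2 in small pre-B cells was the only subunit gene with at least 5 FPKM to reach 2-fold between genotypes in any of the 5 populations. It had 7.39 FPKM (control) and 12.6 FPKM (CKO-labelled) in large pre-B cells, 16.0 and 45.2 FPKM in small pre-B cells, 0.435 to 1.08 FPKM in the thymocyte libraries, and was listed at 0 and 0.478 FPKM in granulocytes. Its share of the summed FPKM of Cox6a1 and Cox6a2 was thereby 6.93% and 17.7% in the small pre-B libraries and at most 3.44% in the 8 others. It was higher in small than in large pre-B cells by 1.39 (SE 0.23, adjusted p = 0.0083, limma). Of all symbols at that level, 4.52% reached 2-fold in the higher and 1.78% in the lower direction in CKO-labelled small pre-B cells. The shares higher and lower were 0.374% and 0.58% in cycling thymocytes, 3.66% and 1.6% in quiescent thymocytes, 0.871% and 0.972% in large pre-B cells, and 0.571% and 1.76% in granulocytes.

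Markers of plasmacytoid dendritic cells moved with it. In small pre-B cells the 4 markers summed to 49.6 FPKM (control) and 243 FPKM (CKO-labelled), and to 25.7 to 81.6 FPKM in the other 8 libraries. Siglech went from 2.25 to 41.5 FPKM, Bst2 from 21.1 to 134 FPKM and Runx2 from 1.06 to 28.1 FPKM in small pre-B cells. In large pre-B cells Siglech went from 7.99 to 3.76 FPKM, Bst2 went from 32.9 to 48.6 FPKM and Runx2 from 2.67 to 6.12 FPKM. Other markers moved there as well: the 6 NK and innate markers summed to 8.45 FPKM (control) and 79.1 FPKM (CKO-labelled), and the 6 monocyte and macrophage markers to 50.8 and 122 FPKM, with Mpeg1 at 4.27 and 77.6 FPKM. From large to small control pre-B cells Cox6a2 went from 7.39 to 16.0 FPKM while the plasmacytoid sum went from 59.8 to 49.6 FPKM. The part of any of these markers in the Cox6a2 values was not tested. Exons of Cox6a2 overlap those of Itgad on the opposite strand, and Itgad stood at 0.0608 to 0.414 FPKM in the 10 libraries.

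Against pre-B cells, subunit genes were called both higher and lower in granulocytes, with neither count above the share over all symbols. Of 80 subunit genes, 26 were higher and 26 lower than the mean of large and small pre-B cells (limma, additive fit over 10 libraries), against 41% higher and 36.7% lower over all 11715 symbols. The median difference was 0.04, and 0.03 over all symbols. Complex I split into 13 higher and 15 lower genes. In complex IV 6 of 14 tested genes were higher and 3 lower, against the mean of both pre-B populations. Of its 10 broadly expressed subunit genes 6 were higher and none lower. By log2 ratio at 5 FPKM, 9 of 13 complex IV genes lay below 0 against control large pre-B cells and 2 of 13 against control small ones. In the CKO-labelled libraries 7 of 13 and 2 of 13 did. The ATP synthase had 6 higher and 7 lower genes, with all 3 c subunit genes and Atp5a1 (-0.99) lower and 3 of 4 peripheral stalk genes higher. A single gene of complex II was higher, Sdhd (0.56), and in complex III Uqcrfs1, the Rieske protein gene, was lower (-0.44).

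Ndufv3, a small accessory subunit gene of the NADH-oxidising module, stood highest above pre-B cells. It had 161 and 144 FPKM in granulocytes, 55.8 and 54.7 FPKM in large pre-B cells and 36.4 and 32.9 FPKM in small pre-B cells, a difference of 1.78 (SE 0.11, adjusted p = 6.3e-06, limma). It was followed by Ndufb7 (1.32), Ndufa3 (1.28), Ndufa1 (1.23), Ndufa13 (1.06), the peripheral stalk gene Atp5f1 (1.0), Ndufb9 (0.96) and the subunit g gene Atp5l (0.86). Ndufa3 is an example, with 353 and 379 FPKM in granulocytes and 118 to 172 FPKM in the 4 pre-B libraries.

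Lowest in granulocytes were Cox6a2 (-3.83), Atp5sl (-1.98), Ndufa12 (-1.59), Atp5g2 (-1.26), Ndufab1 (-1.13), the core subunit gene Ndufs3 (-1.09), the muscle-type isoform gene Cox7a1 (-1.07) and the core subunit gene Ndufs8 (-1.01). Ndufa12 had 20.6 and 19.3 FPKM in granulocytes, against 41.5 to 91.3 FPKM in the pre-B libraries. Ndufs3 had 23.6 and 29.2 FPKM, against 48.3 to 63.4 FPKM. For both genes all granulocyte libraries lay below all pre-B libraries. Of the mitochondrial ribosomal protein genes 55 of 75 were lower and 9 higher in granulocytes (median -0.75), against 36.7% lower and 41% higher over all symbols, and Tfam, which packages mitochondrial DNA, was lower (-1.87).

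Which pre-B population granulocytes are set against matters for the counts. Without the large pre-B pair 40 genes were higher and 17 lower, and without the small pre-B pair 13 were higher and 37 lower (limma). By log2 ratio, control granulocytes had a median of -0.21 against large pre-B cells (all symbols 0.31) and 0.37 against small ones (0.21). In the CKO-labelled libraries the medians were -0.22 (0.27) and 0.31 (0.25). Shares over all symbols are not given for the refits of this paragraph, so their counts show only how far the calls move. Without the CKO-labelled granulocyte library 15 were higher and 23 lower. As a share of all FPKM the 85 genes took 1.22% and 0.956% in granulocytes and 2.05% to 2.77% in pre-B cells, a log2 difference of -1.15, while the sums rescaled by median ratios differed by 0.035, so the direction depends on the total. The erythroid markers summed to 82.5 FPKM in the control and 313 FPKM in the CKO-labelled granulocyte library, and the cycling markers to 420 and 434 FPKM, and the part of either in these values was not tested.

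**Figure D5:**
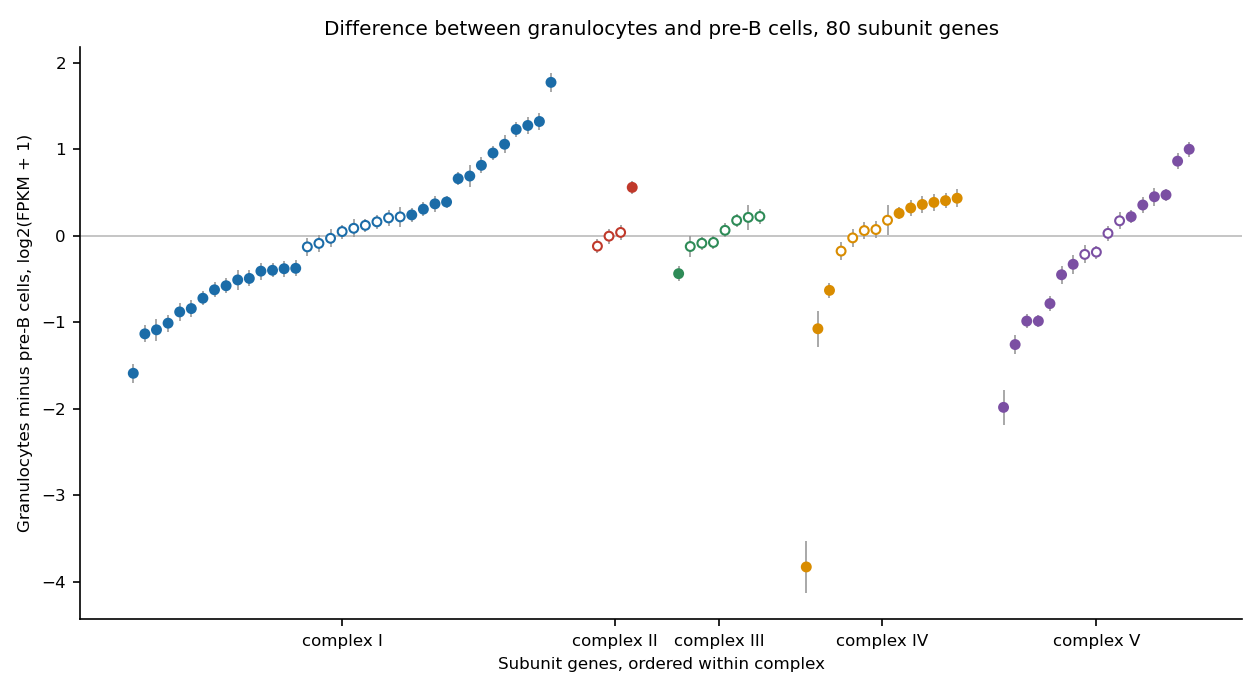
Difference between granulocytes and the mean of large and small pre-B cells (y axis, log2(FPKM + 1)) for 80 subunit genes, ordered within each complex (x axis). Bars are standard errors of the fit over 10 libraries, and filled points passed an adjusted p of 0.05 (26 higher, 26 lower); complex I runs from -1.59 for Ndufa12 to 1.78 for Ndufv3, and the lowest point is Cox6a2 at -3.83.

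Thymocytes held lower levels than pre-B cells when the 2 populations of each lineage were averaged. Of 80 genes 53 were lower and 5 higher (limma), against 36.5% lower and 33.2% higher over all symbols, with a median of -0.28 (all symbols -0.05). The largest falls were those of Cox6a2 (-3.34), Atp5s (-1.0), Atp5g2 (-0.94), Ndufa4 (-0.85), Ndufc1 (-0.82), Ndufb3 (-0.78), Atp5e (-0.72) and Sdhc (-0.69). Higher were Ndufv3 (0.99), the F1 delta subunit gene Atp5d (0.51), Atp5h (0.45), Uqcrh (0.43) and Ndufb6 (0.21). Ndufv3 had 70.9 to 110 FPKM in the thymocyte libraries and 32.9 to 55.8 FPKM in the pre-B libraries, without overlap.

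The same held within each state. Cycling thymocyte libraries both lay below both large pre-B libraries in 61 of 78 genes (43.8% of all symbols) and above them in 7 (40.3%). Quiescent thymocyte libraries both lay below both small pre-B libraries in 54 of 78 genes (38%) and above them in 11 (40.7%). The fit needs both states of both lineages. Without the quiescent thymocyte pair it called 8 genes higher and 15 lower, and without the large pre-B pair 12 higher and 15 lower (limma). Shares over all symbols are not given for these refits, so their counts show only that the calls depend on the libraries used. Ndufb6 turned to -0.17 without the cycling thymocyte pair and to -0.20 without the small pre-B pair.

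Isoform genes known from other tissues contributed little beside their broadly expressed partners. Cox4i1 gave at least 99.8% of the Cox4i sum, Cox8a at least 99.9% of the Cox8 sum and Cox6b1 96.7% to 98.3% of the Cox6b sum, and Cox7b2 and Cox8c were listed at 0 in all 10 libraries. Cox6a2 in pre-B cells, described above, was the exception. Among the Cox7a genes the share of Cox7a2l, the supercomplex factor, was 51.1% to 59.5% in the dividing and granulocyte libraries and 73.6% to 81.0% in quiescent thymocytes and small pre-B cells, while Cox7a1 gave 0.209% to 1.32%. Cox7a2, the subunit gene proper, was lower in both non-dividing populations, with differences of -0.84 in thymocytes and -0.53 in pre-B cells.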

How the data were processed

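Per the labels' protocols, total RNA came from Qiagen RNeasy kits and libraries from Illumina's standard procedure. Per the submitters' processing notes the tools were TopHat2 2.0.8b and Cuffdiff 2.1.1 and the build mm10, with no roles or options stated. The annotation, the strand setting and the handling of multiply mapped reads are not given in the sources used here. The values deposited by the authors are read as FPKM, a unit inferred from those tools and from the values. Median-ratio factors of the libraries were 0.986 to 1.03. An exact 0 can be a failed estimate.

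Each table had 23179 rows. After 201 exact repeats were dropped, 47 symbols still had more than 1 entry, of which that with the highest mean stayed, leaving 22923. Tests were limma-trend fits (limma 3.58.1 in R 4.3.3) on log2(FPKM + 1), which understates changes of low genes, for symbols with at least 1 FPKM in 2 or more fitted libraries, with Benjamini-Hochberg adjustment over all of them and a threshold of 0.05. Quiescent and cycling cells were compared in 8 libraries with lineage by genotype as a block (2 residual degrees of freedom), CKO-labelled with control libraries with population as a block (3 and 4), and granulocytes or thymocytes with pre-B cells in an additive fit of population and genotype (4). Within a population, log2 ratios of FPKM + 1 were described for genes that reached 5 FPKM in either library. The fits were tested on simulated data.

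The genes named are, per complex, the 3 with the highest mean; per test, up to 8 called rises and 8 called falls; per population, the 3 highest and 3 lowest ratios; the tissue-restricted isoforms; and others chosen after their values were seen, among them those named by role. The members and lists were chosen with earlier results of these data known. Alternatives were pseudocounts of 0.1 and 5, other filters, median-ratio rescaling, other designs and leaving out pairs of libraries. Of the 85 symbols, 82 matched RefSeq by symbol and 3 by a synonym, and 23 have exons that overlap another gene. Python 3.11.15, pandas 2.3.3, numpy 2.4.6 and matplotlib 3.10.9 were used.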

Additional observations from a re-analysis of the deposited data

Results flagged for a closer look

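For 3 subunit genes the difference between non-dividing and dividing cells was itself different in the 2 lineages by the test of that difference (limma, adjusted p of at most 0.05). These 3 of 80 stand beside 6.84% of all symbols, and 14 of 80 with an unadjusted p under 0.05 beside 28.2%, so neither count is above the share over all symbols. The pre-B difference minus the thymocyte difference was -1.10 for Atp5g1, 0.84 for Ndufc1 and -0.69 for Uqcrb on the log2 scale. None of the 3 passed in every fit that left out a pair of libraries.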

How the results depend on the processing

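With 10 libraries and 1 per group, the calls rest on few residual degrees of freedom. Leaving out pairs or single libraries (the latter chosen after seeing the data) gave 0 to 47 called members for quiescent against cycling thymocytes, 0 to 64 for small against large pre-B cells, 0 to 1 for the difference between lineages, 38 to 57 for granulocytes against pre-B cells, 23 to 68 for thymocytes against pre-B cells, and 0 to 0 for the CKO-labelled against control fits. Fits without a pair of the lineage compared rest on 1 residual degree of freedom. Shares over all symbols are not given for these refits, so the ranges show only how far the calls move. In the full fit of granulocytes against pre-B cells 41% of all symbols were higher and 36.7% lower. In that of thymocytes against pre-B cells 33.2% were higher and 36.5% lower. For the term of state by genotype no pair could be left out, since no degree of freedom is left. For the difference between lineages, 1 member passed with a pseudocount of 0.1 and 0 without the filter on low values (limma, 17 with an unadjusted p under 0.05). In thymocytes against pre-B cells Ndufb6 turned to -0.17 and -0.20 without the cycling thymocyte or small pre-B pair, in a range of -0.20 to 0.62. The granulocyte median CKO over control ratio, -0.01, became 0.0089 with genes from 1 FPKM. For log2 ratios between populations, the summed levels were taken as shares of all FPKM. After median-ratio rescaling in place of shares, small over large pre-B cells gave -0.53, -0.51, -0.49, -0.46 and -0.70 for complexes I to V and -0.57 for all (shares -0.33, -0.31, -0.29, -0.27, -0.51 and -0.37), and granulocytes over pre-B cells gave 0.20, 0.087, -0.068, 0.10 and -0.14, and 0.035 for all (shares -0.98, -1.10, -1.25, -1.09, -1.32 and -1.15), by construction of the total. The fits already hold lineage by genotype, or population, as a block, and the labels give no replicate numbers for a further pairing. The number of reads is unknown, so no counting error can be given.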
